A study of Mus musculus with 2 samples.

Results

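The genes described here encode the core proteins of the basement membrane, namely the laminin chains Lama1, Lama5, Lamb1 and Lamc1, the collagen IV chains Col4a1 and Col4a2, the linker protein nidogen (Nid1), the proteoglycan perlecan (Hspg2) and the collagen-binding glycoprotein Sparc. They were taken by name from the probe sets assigned to a single gene, and all 9 were measured, on 15 probe sets, of 10313 genes and 15273 such probe sets in all. Gene expression was compared between mouse embryonic stem cells overexpressing lincU, a long noncoding RNA, and control cells, with 1 Affymetrix 3' expression array per group. Both cultures were of the 46C embryonic stem cell line, kept on a feeder layer with 15% serum and with leukaemia inhibitory factor (LIF) at 1000 U/ml, and the feeder was removed before RNA was taken. The labels name no construct or promoter for the overexpression and do not say whether the cells were 1 clone. With 1 array per group there was no test and no replicate check, and each difference describes these 2 arrays, whose number limits the precision.

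The basement membrane is a thin sheet of matrix under epithelia. Laminin trimers, each of an alpha, a beta and a gamma chain, polymerise at the cell surface, a collagen IV network is laid over them, and nidogen and perlecan link the networks. In the early mouse embryo, laminin and collagen IV are made in large amounts by the primitive endoderm and its parietal derivative, and laminin receptors on epiblast cells take part in their polarisation.

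Collagen IV chains are encoded by pairs of genes placed head to head. RefSeq promoter windows of assembly GRCm38.p6, from 250 bases before to 50 after a gene's start, matched 7 of the 9 genes by symbol, all except Lama1 and Lamc1. The windows of Col4a1, chr8:11312777-11313076 on the minus strand, and Col4a2, chr8:11312555-11312854 on the plus strand, overlapped by 78 bases, with starts 21 bases apart. They are shown because this pair of neighbours did not differ alike between the arrays, and capitals mark the shared stretch, written on each gene's own strand. Every base of that stretch lies at or after the start of Col4a1, of Col4a2 or of both.
Col4a1: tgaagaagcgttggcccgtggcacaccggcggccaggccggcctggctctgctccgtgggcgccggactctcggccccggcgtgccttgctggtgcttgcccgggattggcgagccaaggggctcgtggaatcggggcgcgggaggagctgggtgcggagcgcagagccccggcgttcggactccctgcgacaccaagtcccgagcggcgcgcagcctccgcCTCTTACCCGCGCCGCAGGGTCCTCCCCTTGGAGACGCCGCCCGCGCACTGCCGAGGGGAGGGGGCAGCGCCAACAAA
Col4a2: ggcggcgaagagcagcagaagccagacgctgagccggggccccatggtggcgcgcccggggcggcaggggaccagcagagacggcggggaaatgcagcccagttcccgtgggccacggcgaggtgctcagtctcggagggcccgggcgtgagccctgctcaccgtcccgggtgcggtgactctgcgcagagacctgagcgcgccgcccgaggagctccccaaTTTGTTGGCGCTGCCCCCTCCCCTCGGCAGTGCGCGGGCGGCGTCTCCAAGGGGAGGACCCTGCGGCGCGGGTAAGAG
The windows of Lama5, chr2:180225810-180226109 on the minus strand, and Nid1, chr13:13437352-13437651 on the plus strand, are shown because these genes had the lowest and one of the highest log2 differences of the 9. Capitals mark the GC box GGGCGG on either strand.
Lama5: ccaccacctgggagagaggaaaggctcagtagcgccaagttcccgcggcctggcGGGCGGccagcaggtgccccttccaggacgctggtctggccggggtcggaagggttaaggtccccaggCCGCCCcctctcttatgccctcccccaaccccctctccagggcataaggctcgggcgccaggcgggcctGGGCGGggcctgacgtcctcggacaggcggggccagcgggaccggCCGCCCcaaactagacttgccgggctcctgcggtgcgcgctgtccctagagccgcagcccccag
Nid1: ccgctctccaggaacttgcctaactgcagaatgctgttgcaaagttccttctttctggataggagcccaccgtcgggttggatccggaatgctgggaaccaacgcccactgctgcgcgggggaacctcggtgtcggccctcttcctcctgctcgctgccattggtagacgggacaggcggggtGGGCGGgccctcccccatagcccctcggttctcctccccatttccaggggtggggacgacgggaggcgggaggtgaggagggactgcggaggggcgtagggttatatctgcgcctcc
The GC box had 4 matches in the Lama5 window and 1 in the Nid1 window, 1 in the Col4a1 window and 3 in the Col4a2 window, of which 1 lay in the stretch that both share. It had 5 matches in the Hspg2 window, 2 in the Lamb1 window and none in the Sparc window, and 35.9% of 32544 mouse promoter windows of this length held it. This motif is made of G and C only, and the windows with a match held from 63.7% (Lamb1) to 74.0% (Col4a1) of these bases. The Sparc window held 55.3%, and the median over the 32544 windows was 53%, so the shares are not compared at like base composition. The CCAAT box, the letters CCAAT on either strand, had 1 match each in the Lamb1, Col4a1, Col4a2 and Nid1 windows and was in 37.4% of all windows. The TATA letters TATAAA, on either strand, were in none of the 7 windows and in 13.6% of all. None of the 3 motifs contains another, and a match describes the sequence only.

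The table held 1 log2 signal per probe set and array, with a median over named probe sets of 7.90 on the lincU overexpression array and 7.96 on the control array. Each gene was read from the probe set with its highest mean signal. It was called bright where the higher of its 2 signals reached the median of its own array, which 5609 genes did. Probe sets of the same gene gave log2 differences, overexpression minus control, that varied with an SD of 0.23 over the 1732 genes that had more than 1 bright probe set, and this SD holds no variation between cultures. Over all bright genes the differences had an SD of 0.40 and a median of 0.00.

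The laminin and collagen IV genes did not all differ in the same direction between these arrays. Of the 9 genes, Lama1, Nid1, Col4a1 and Lamc1 had higher signal and Lama5, Col4a2, Lamb1, Hspg2 and Sparc lower signal in the lincU overexpression culture. Of bright genes, 50.2% had a difference above 0 and 49.8% below 0. The differences of 3 of the 9, Lamc1, Hspg2 and Sparc, were smaller than the SD between probe sets of a gene. Nid1 and Hspg2 also had a second bright probe set of the opposite sign. Only Lama1 was at least 2-fold higher, and none was at least 2-fold lower. Among all bright genes, 1.53% passed 2-fold upwards and 1.3% downwards. Of the 86 that passed upwards, 39 remained without genes of chromosomes 14 and 6, a setting chosen after seeing the data. Of the 73 that passed downwards, 58 remained. None of the 9 genes lies on those chromosomes. At 1.5-fold, 3 of the 9 (Lama1, Nid1 and Col4a1) were higher, against 4.65% of bright genes, and 1 (Lama5) was lower, against 6.69%. Of these 3, only Nid1 was bright on both arrays, and its other bright probe set stood at -0.20. The median log2 difference over the 9 genes was -0.19 and the mean 0.11, opposite in sign, with a range from -0.68 to 1.04. All 9 genes were bright, but Lama1 and Col4a1 through the overexpression array alone. In a bulk culture, a larger share of cells of 1 type and more RNA per cell cannot be told apart.

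**Figure D1:**
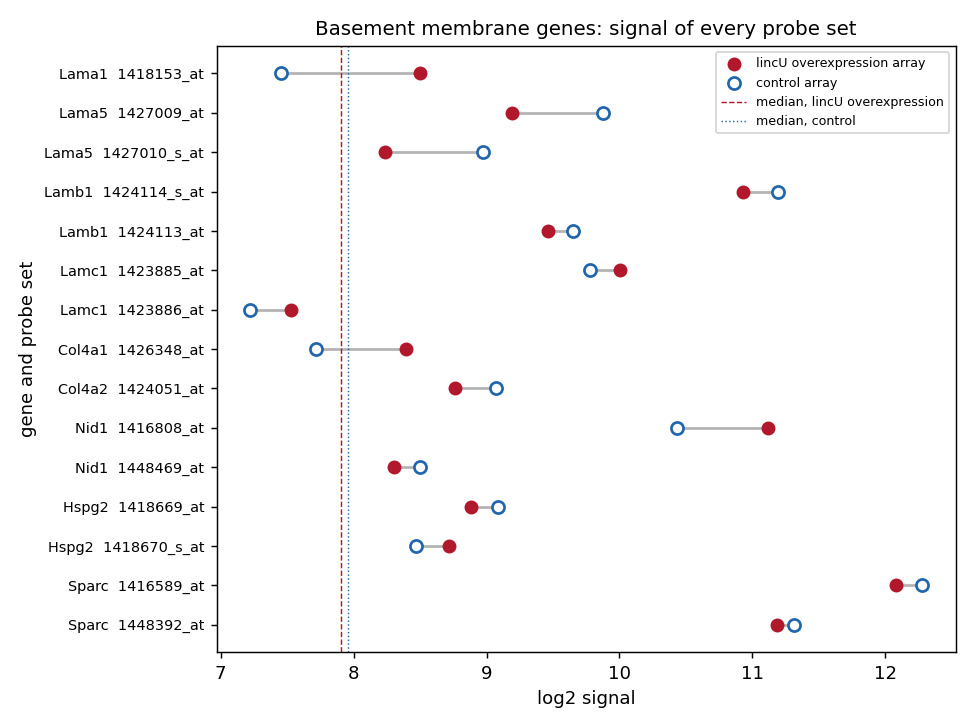
Log2 signal (x axis) of each of the 15 probe sets of the 9 genes (y axis), with filled points for the lincU overexpression array, open points for the control array and vertical lines at each array's median over named probe sets. Lama1 and Col4a1 stand right of the median on the overexpression array and left of it on the control array, and the 2 probe sets of Lama5 shift left by similar amounts.

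Among the laminin alpha chains, Lama1, the alpha chain of the first laminin of the embryo, had a log2 signal of 8.50 in lincU overexpressing cells and 7.46 in control cells. The difference of 1.04, or 2.06-fold, came from its only probe set (1418153_at), and 1.44% of bright genes were at least as high. Lama5, the alpha chain of laminin-511, which is widely used as a substrate for pluripotent cells, went the other way on both of its probe sets. On the brighter one (1427009_at) the log2 signal was 9.19 in overexpressing cells and 9.87 in control cells, a difference of -0.68, or 1.61-fold lower. On the other (1427010_s_at) it was 8.24 in overexpressing cells and 8.97 in control cells, a difference of -0.74. The 2 probe sets of Lama5 thus differed from each other by 0.05, less than the SD between probe sets of a gene, while the log2 differences of Lama1 and Lama5 lay 1.73 apart. Of bright genes, 4.69% were at least as low as Lama5 on its brighter probe set.

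The chains that both alpha chains pair with differed by less than 1.5-fold. Lamb1, the beta chain, had a log2 signal of 10.93 in overexpressing cells and 11.19 in control cells on its brighter probe set (1424114_s_at), a difference of -0.27. Its second probe set (1424113_at) was at 9.46 in overexpressing cells and 9.65 in control cells, a difference of -0.18. Differences of at least the size on the brighter probe set were seen in 36.9% of bright genes. Lamc1, the gamma chain, was at 10.01 in overexpressing cells and 9.78 in control cells on its brighter probe set (1423885_at), a difference of 0.23. Its other probe set (1423886_at), the only dim one of the 15, was at 7.53 in overexpressing cells and 7.22 in control cells, a difference of 0.31. Both genes kept 1 sign over their probe sets.

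The 2 collagen IV genes, whose products assemble into the most common collagen IV trimer, had opposite signs. Col4a1 (1426348_at) had a log2 signal of 8.40 in overexpressing cells and 7.72 in control cells, a difference of 0.68, or 1.60-fold. Col4a2 (1424051_at) had 8.76 in overexpressing cells and 9.07 in control cells, a difference of -0.31. Their differences lay 0.99 apart. Each rests on 1 probe set, so no second measurement within the gene was at hand for either. Of bright genes, 3.32% were at least as high as Col4a1 and 18.1% at least as low as Col4a2.

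The proteins that link or bind the networks gave smaller or divided differences. Nid1, which bridges laminin and collagen IV, was at 11.12 in overexpressing cells and 10.43 in control cells on its brighter probe set (1416808_at), a difference of 0.69, or 1.61-fold. Its second bright probe set (1448469_at) was at 8.30 in overexpressing cells and 8.50 in control cells, a difference of -0.20. The 2 probe sets of Nid1 therefore disagreed in sign and lay 0.89 apart, and their mean was 0.25, so the direction for Nid1 depends on the probe set. Hspg2, which encodes perlecan, also had probe sets of opposite sign. It was at 8.88 in overexpressing cells and 9.08 in control cells on 1 probe set (1418669_at), a difference of -0.20, and at 8.72 in overexpressing cells and 8.47 in control cells on the other (1418670_s_at), a difference of 0.25. Sparc, a matricellular protein that binds collagen IV and is abundant in parietal endoderm, was at 12.08 in overexpressing cells and 12.28 in control cells on its brighter probe set (1416589_at), a difference of -0.19. Its second probe set (1448392_at) was at 11.18 in overexpressing cells and 11.31 in control cells, a difference of -0.13. Of the 6 genes with 2 probe sets, 4 kept 1 sign and 2, Nid1 and Hspg2, did not.

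Each of the 9 genes was set beside up to 5 bright genes on each side in RefSeq gene order. The 10 neighbours of Lama1 on chromosome 17 had log2 differences from -0.77 to 0.40 with a median of -0.11, all under the 1.04 of Lama1. The 9 neighbours of the collagen IV pair used for Col4a1, leaving out Col4a2, reached 0.15 at most, under its 0.68. The neighbours of Nid1 reached 0.48, under its 0.69. Lama5 at -0.68 was inside the range of its neighbours, whose lowest was -0.75 and whose median was 0.05.

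**Figure D2:**
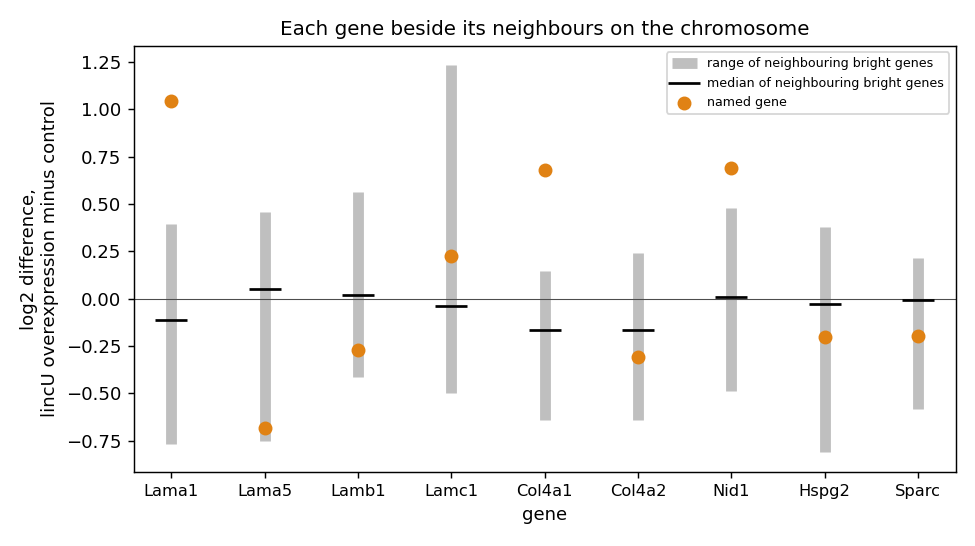
Log2 difference, lincU overexpression minus control (y axis), of each gene (orange point, x axis) beside its neighbouring bright genes on the chromosome (grey bar, their range; black dash, their median). Lama1, Col4a1 and Nid1 lie above all of their neighbours used, and the other 6 genes lie within their neighbours' range.

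Other basement membrane genes were mostly dim. Of 28 listed, 20 were measured and 7 were bright, 3 of them higher and 4 lower, with a median of -0.26 over the bright ones. Smoc1, a calcium-binding glycoprotein related to Sparc, had a log2 signal of 7.71 in overexpressing cells and 9.44 in control cells, a difference of -1.73, and was bright through the control array alone. Nid2, the second nidogen, was at 12.40 in overexpressing cells and 11.32 in control cells, a difference of 1.08 on its only probe set. Nid2 lies in the stretch of chromosome 14 from Abhd6 to Ghitm, whose 70 bright genes had a median of 1.08, and with that median subtracted it stood at 0.0038. That median includes Nid2 itself. The stretch, like the gene lists, was chosen with earlier results of these data known, so the subtraction is no test. Fbln1, which encodes the matrix protein fibulin-1, differed by 0.36, the heparan sulphate proteoglycan gene Agrn by -0.35 and the X-linked collagen IV chain gene Col4a5 by -0.34, with its dim second probe set at 0.41. Like Smoc1, Col4a5 was bright through the control array alone.

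Of 12 measured receptors for this matrix 7 were bright, and none of the 7 passed 1.5-fold, where 11.3% of bright genes passed it either way. This depends on the brightness rule, since 2 dim receptors passed 1.5-fold. The integrin alpha subunit gene Itga3 differed by -0.89, with its control signal of 7.95 just under the median of that array, and the laminin receptor gene Bcam by -0.59. Of the 7 bright receptors 6 were lower and 1 was higher, with a median of -0.17. Among the lower ones, Ddr1 and Sdc2 were bright through the control array alone, so the count also depends on the brightness rule. Itga6, the alpha subunit of laminin-binding integrins, was at 11.72 in overexpressing cells and 11.62 in control cells. Dag1, which encodes dystroglycan, was at 11.35 in overexpressing cells and 11.52 in control cells. The collagen receptor kinase gene Ddr1 differed by -0.36 on its chosen probe set and by -0.58 on its other bright one, and the syndecan gene Sdc2 by -0.31. That other probe set of Ddr1 was also bright through the control array alone. The syndecan gene Sdc1 differed by -0.47, and its other bright probe sets by -0.34 and 0.45, the last bright through the overexpression array alone.

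Genes for the modification and export of collagen were measured for 13 of 14 listed, and 11 were bright, 5 higher and 6 lower, with a median of -0.01. Mia3, which encodes the endoplasmic reticulum export receptor TANGO1 for large cargo such as collagen, was at 7.78 in overexpressing cells and 8.91 in control cells. It was bright through the control array alone, and its difference of -1.13 was the only one past 1.5-fold among the bright genes of this list. The lysyl hydroxylase and glycosyltransferase gene Plod3 differed by -0.45 and the cartilage-associated protein gene Crtap by -0.25. The prolyl hydroxylase genes P3h1 and P4ha2 differed by 0.32 each, and P4ha2 was bright through the overexpression array alone.

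**Figure D3:**
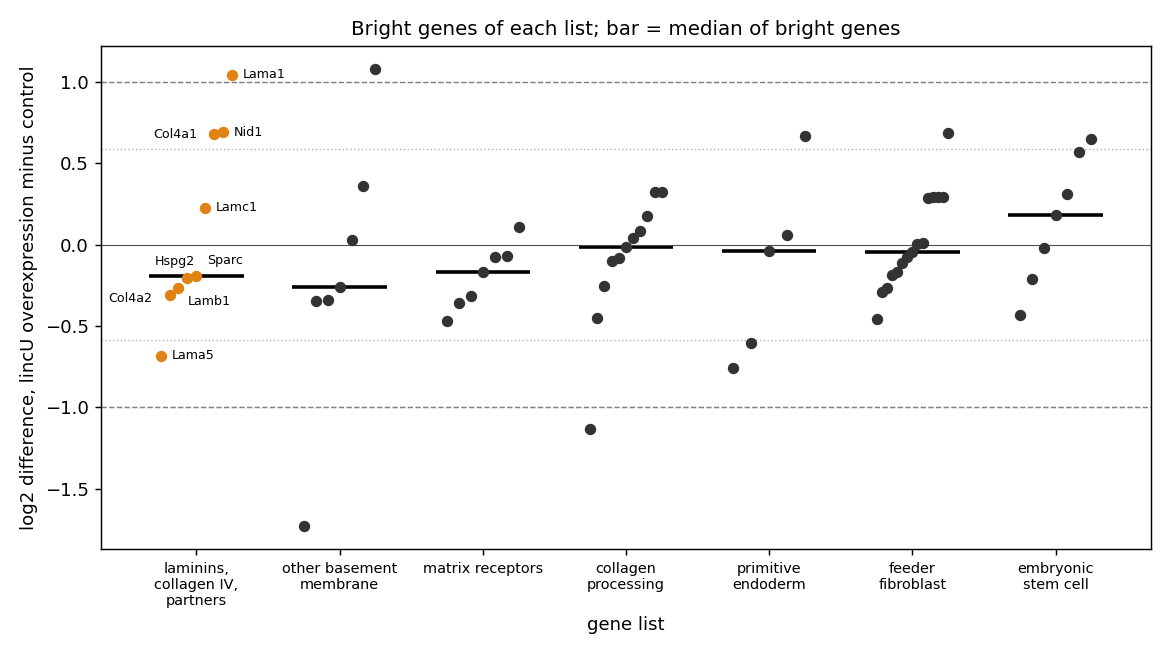
Log2 difference, lincU overexpression minus control (y axis), of the bright genes of each list (x axis), 1 point per gene, with a bar at the median of the list's bright genes, dotted lines at 1.5-fold and dashed lines at 2-fold. The 9 laminin, collagen IV and partner genes spread from -0.68 to 1.04 around a median of -0.19, and the 15 bright feeder fibroblast markers lie around a median of -0.04.

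The culture label was checked against markers. The 7 measured of 8 embryonic stem cell markers were all bright on both arrays, from 11.51 to 14.85. They differed both ways, and 1 of 7 passed 1.5-fold. Esrrb differed by 0.65 and by 0.17 on its other bright probe set, Nanog by 0.57, Zfp42 by 0.31 and Sox2 by 0.18, while Utf1 differed by -0.43, Pou5f1 by -0.21 and Dppa5a by -0.02. Feeder cells are fibroblasts, which make laminins, collagen IV, nidogen, perlecan and Sparc themselves, so RNA left from the feeder is another possible source of these transcripts. Of 24 feeder fibroblast markers 20 were measured, none at 0, and 15 were bright, 7 higher and 8 lower. Their summed signal, on the log2 scale, was 14.64 in overexpressing cells and 14.60 in control cells, a difference of 0.03, beside 13.52 in overexpressing cells and 13.55 in control cells for the 9 basement membrane genes. The brightest genes weigh most in such a sum, and opposite differences cancel in it. The 5 fibrillar collagen genes of the list were named after their values were seen. Their log2 differences were 0.0058 for Col1a1, -0.11 for Col1a2, -0.04 for Col3a1, 0.01 for Col5a1 and -0.29 for Col5a2. A second bright probe set of Col5a1 stood at -0.29 and a dim one of Col3a1 at -0.39.

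The brightest feeder markers were the fibronectin gene Fn1, at 13.01 in overexpressing cells and 12.72 in control cells, and the smooth muscle genes Acta2 and Tagln, with differences of -0.27 and -0.19. The widest difference among bright feeder markers was in the receptor gene Pdgfrb, at 0.69, with its dim second probe set at -0.98. The matrix protease gene Mmp2 differed by -0.46 on its chosen probe set, against 0.20 on its other bright one. The transcription factor gene Prrx1 and the matrix gene Postn differed by 0.29 each. The bright feeder markers ranged from -0.46 to 0.69 with a median of -0.04. The share of feeder RNA in the signal of each of the 9 genes was not tested.

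Markers of the primitive endoderm, the embryonic cell type known for high Lama1, Col4a1 and Sparc, were mostly dim. Of 21 listed 18 were measured, none at 0, and 5 were bright. Their summed signal, on the log2 scale, was 11.24 in overexpressing cells and 11.23 in control cells, a sum in which the brightest genes again weigh most and opposite differences cancel. The transcription factor genes of the list were named after their values were seen, and all were dim on both arrays. Gata4 was at 5.86 in overexpressing cells and 5.83 in control cells, Gata6 at 6.92 in overexpressing cells and 6.39 in control cells, and Sox17 at 6.14 in overexpressing cells and 6.16 in control cells. The second probe sets of Gata4 and Gata6 went the other way, at -0.35 and -0.34. Foxa2 differed by -0.76, Sox7 by -0.72, Snai1 by -0.56 and Hnf4a by 0.09, with Sox7 and Snai1 at the floor in overexpressing cells. The receptor gene Pdgfra, also dim, differed by 1.31 with control cells at the floor, and by -0.02 on its other probe set. Among the bright markers, the endocytic receptor gene Lrp2 differed by 0.67 and the adaptor gene Dab2 by 0.06. The cubilin partner gene Amn differed by -0.76, the activin antagonist gene Fst by -0.60 and the protease gene Plat by -0.04. Amn and Fst were bright through the control array alone. The part of such cells in the differences of the 9 genes was not tested.

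The differences were recomputed with each array centred on its median, with quantile normalization, with a loess trend subtracted, with no floor or a higher floor, with a pseudocount, with a gene's probe sets averaged, and without the probe sets whose names mark them as shared between transcripts. Lama1 lay between 0.83 and 1.12, and with the pseudocount, at 0.83, it was no longer 2-fold higher. Lama5 lay between -0.71 and -0.63 and Col4a2 between -0.31 and -0.24. Col4a1 lay between 0.55 and 0.75, and Nid1 between 0.25 and 0.75, the lowest value being that with probe sets averaged.

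**Figure D4:**
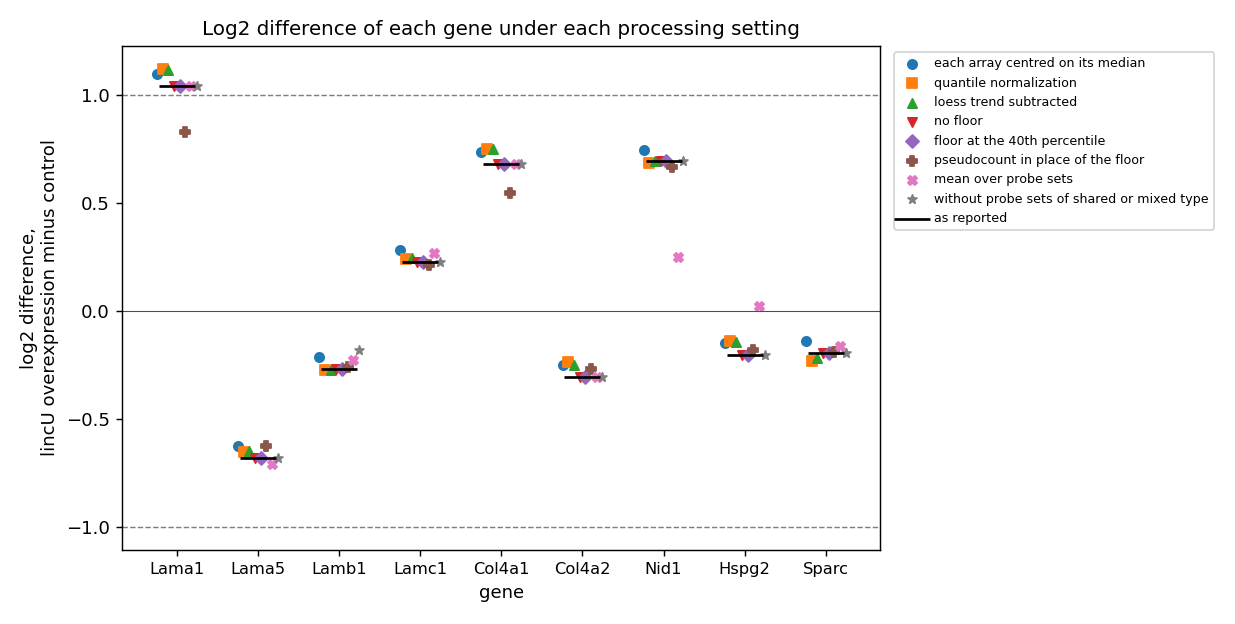
Log2 difference, lincU overexpression minus control (y axis), of each gene (x axis) as reported (black dash) and under 8 processing settings (symbols), with dashed lines at 2-fold. Lama1, Col4a1 and Lamc1 stay above 0 and Lama5, Col4a2, Lamb1 and Sparc below 0 in all settings shown, Hspg2 crosses 0 when its probe sets are averaged, and Nid1 drops to 0.25 there.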

How the data were processed

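Per the labels' protocols, total RNA of the lincU overexpressing and control cells was amplified and labelled with biotin for Affymetrix 3' expression arrays, 1 per group. The authors deposited log2 signals for 16994 probe sets. The submitters' processing notes list MAS5 and affy with no version, order or role. The log2 scale was read from the maxima of 15.26 (overexpression) and 15.13 (control), and the scaling target and detection calls are not given in the sources used here. A signal-to-background limit therefore could not be set, and every probe set of the 9 genes stood at least 1.49 above the floor described next.

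Probe sets with 1 gene in the platform annotation were kept, and 15252 of 15273 were updated through RefSeq gene IDs (GRCm38.p6). Values under an array's 25th percentile, 5.65 (overexpression) and 5.73 (control), were raised to it, and a difference with both arrays under it was set to 0. The gene lists, the 9 genes and the rules were chosen with earlier results of these data known. Named outside the 9 were up to 5 bright genes per list with the largest difference and, for feeder and stem cell lists, also the brightest 3, apart from those marked as chosen later. The 8 recomputations included a pseudocount of 64. The counting code was run on simulated data. The genes changed there were brighter, and changed by more, than Lama1 or Col4a1, so that run does not bear on the counts for such genes. Tools were Python 3.11.15, pandas 2.3.3, numpy 2.4.6, statsmodels 0.14.6 and matplotlib 3.10.9.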

Additional observations from a re-analysis of the deposited data

How the results depend on the processing

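No paired analysis was possible because each group had 1 array, and no array could be left out. Of 72 recomputed log2 differences of the 9 genes, 1 moved by more than 0.23, the SD between a gene's probe sets, namely Nid1, at 0.25 with probe sets averaged, where its 2 probe sets disagree. In that setting Hspg2 changed sign, to 0.02, and so did the median over the 9 genes, to 0.02. The number of the 9 genes at least 2-fold higher was 0 with the pseudocount and 0 with brightness at the 75th percentile, and it was 3 at 1.5-fold, where 1 was lower. Over all genes, 86 bright genes were at least 2-fold higher and 73 lower. These counts were 153 and 226 with no brightness rule, 37 and 15 with brightness at the 75th percentile, and 261 and 375 at 1.5-fold. With the pseudocount 39 were lower. Without genes of chromosomes 14 and 6, a setting chosen after seeing the data, 39 were higher. No floor and a floor at the 40th percentile left the differences of the 9 genes as reported, since their signals lie above both floors. Averaging could not alter the 3 genes with 1 probe set, and leaving out shared probe sets changed Lamb1 alone. The 72 recomputed differences therefore include many that could not move.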
